A study of Mus musculus with 6 samples.

Results

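The CDK inhibitors and p53 targets measured here were Cdkn1a, Cdkn1b, Cdkn1c, Cdkn2a, Cdkn2b, Cdkn2c, Cdkn2d, Mdm2 and Ccng1, 9 genes in all. They were chosen by symbol, as every probe on the array whose current or older gene symbol is one of these names. They made 9 of the 19053 genes named on the array and were read by 21 probes. Trp53 itself was not analysed here. The values come from Illumina mouse bead arrays of mammary epithelial cells in culture, which in the gland form ducts and milk-producing alveoli. The wild-type cultures (WT) were Jarid1b+/+ and the knockout cultures (KO) were Jarid1b-/-, with 3 arrays each, lettered A, B and C, all early-passage cells taken before they filled the dish. Jarid1b is the older symbol of Kdm5b, an enzyme that takes methyl marks off lysine 4 of histone H3. The sources used here do not give the strain, age or number of the animals behind the cultures.

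A cell enters the division cycle when cyclins activate their kinases (CDKs), which phosphorylate the retinoblastoma protein and free E2F factors to switch on DNA replication genes. CIP/KIP inhibitors (Cdkn1a, Cdkn1b, Cdkn1c) bind cyclin-CDK complexes, and INK4 inhibitors (Cdkn2a, Cdkn2b, Cdkn2c, Cdkn2d) bind the kinases that pair with D cyclins. The factor p53 switches on Cdkn1a, Mdm2 and Ccng1 after damage, Mdm2 in turn marks p53 for destruction, and ARF, the other product of Cdkn2a, blocks Mdm2. In cultured mammary epithelium these brakes are known for the arrest that ends growth after a few passages.

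For the p53 targets Cdkn1a, Mdm2 and Ccng1, the 250 bases before each RefSeq start are given (RefSeq, build GRCm38.p6, 5′ to 3′ on the gene's strand). Sequence outside these windows was not searched. Capitals mark matches to the p53 half-site consensus. The upstream start of Cdkn1a lies at chr17:29090729-29090978 on the plus strand and the inner one at chr17:29093519-29093768 on the plus strand. The Mdm2 window is chr10:117710759-117711008 on the minus strand, and the Ccng1 window is chr11:40755287-40755536 on the minus strand.
Cdkn1a, upstream start: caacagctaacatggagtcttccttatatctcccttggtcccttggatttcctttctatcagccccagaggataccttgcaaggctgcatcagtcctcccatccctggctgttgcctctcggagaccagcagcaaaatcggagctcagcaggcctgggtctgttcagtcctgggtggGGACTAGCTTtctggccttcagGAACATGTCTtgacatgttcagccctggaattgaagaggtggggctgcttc
Cdkn1a, inner start: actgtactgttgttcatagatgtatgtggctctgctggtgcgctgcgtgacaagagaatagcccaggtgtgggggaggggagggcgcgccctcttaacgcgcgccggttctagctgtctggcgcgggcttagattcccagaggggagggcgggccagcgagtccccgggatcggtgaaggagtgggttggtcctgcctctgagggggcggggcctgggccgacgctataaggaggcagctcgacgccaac
Mdm2: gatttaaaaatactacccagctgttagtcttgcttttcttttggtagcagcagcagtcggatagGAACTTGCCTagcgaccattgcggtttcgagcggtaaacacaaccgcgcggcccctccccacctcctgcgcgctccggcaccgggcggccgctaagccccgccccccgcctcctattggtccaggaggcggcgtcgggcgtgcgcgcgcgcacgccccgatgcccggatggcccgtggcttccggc
Ccng1: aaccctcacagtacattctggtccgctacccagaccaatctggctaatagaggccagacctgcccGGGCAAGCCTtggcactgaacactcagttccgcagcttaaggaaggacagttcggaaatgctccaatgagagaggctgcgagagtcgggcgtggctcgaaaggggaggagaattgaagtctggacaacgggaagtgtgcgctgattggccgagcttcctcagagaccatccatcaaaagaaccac
The upstream Cdkn1a window held 2 half-site matches, the inner one 0, and Mdm2 and Ccng1 1 each. A half-site match, searched on both strands, stood in 4 of the 11 start windows of these genes and in 7.13% of all 32841 start windows. The window with a match beyond those named above was that of the INK4 gene Cdkn2d, with 1 match. The inner Cdkn1a window held 19 CpG dinucleotides and the upstream one 2. These matches describe letters, and whether p53 binds or acts at them was not tested here.

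Cdkn2a is shown because 1 gene gives 2 proteins from separate starts, ARF at chr4:89294620-89294869 and INK4a at chr4:89282193-89282442, both on the minus strand. The array has probes annotated to each transcript. Capitals here mark the GC box GGGCGG, searched on both strands.
Cdkn2a, ARF start: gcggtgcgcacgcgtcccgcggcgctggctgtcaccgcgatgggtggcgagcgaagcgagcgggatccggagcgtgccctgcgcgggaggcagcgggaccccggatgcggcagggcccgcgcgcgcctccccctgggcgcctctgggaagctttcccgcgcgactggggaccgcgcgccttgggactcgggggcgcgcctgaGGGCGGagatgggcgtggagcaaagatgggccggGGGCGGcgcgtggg
Cdkn2a, INK4a start: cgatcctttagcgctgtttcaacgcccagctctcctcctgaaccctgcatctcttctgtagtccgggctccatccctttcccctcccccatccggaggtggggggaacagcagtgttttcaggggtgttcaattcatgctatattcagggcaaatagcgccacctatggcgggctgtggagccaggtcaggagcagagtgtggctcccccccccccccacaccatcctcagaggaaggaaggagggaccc
The ARF window held 40 CpG dinucleotides and 2 GC boxes, and the INK4a window 7 and 0. A GC box stood in 6 of the 11 windows of these genes and in 32.7% of all windows. The median CpG count was 16 in the 11 windows and 6 in all windows. Windows were matched for 8 of the 9 genes.

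Each array carried 45281 probes and detected 17033 to 18686 of them at a detection p under 0.05. The first principal component, 56.5% of the variance, set both pair C arrays apart from the other 4, and the second, 18.9%, set KO A apart. Kdm5b checked the labels: its brightest probe read 7.07, 6.89 and 6.60 on the log2 scale in WT A, B and C, and was not well above background on any KO array. It was at least 4.94-fold lower in KO (limma, log2 difference -2.46, SE 0.18, adjusted p = 0.0155). The second Kdm5b probe was at least 4.51-fold lower (adjusted p = 0.0155), and the third at least 1.51-fold lower (limma adjusted p = 0.924). The sources used here do not place these probes relative to the deletion. Luminal keratin 18 and basal keratin 14 were detected, but the epithelial adhesion gene Epcam and the luminal factor Ehf were detected on no array. Lymphoid markers summed to a normalised intensity, off the log2 scale, of 3100 on KO C and 111 to 324 on the other 5 arrays. Only the T cell genes Cd3e, Cd3d and Cd3g of that list were tested, and no B cell marker was.

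None of the 16 tested probes of the 9 genes passed the threshold of an adjusted p under 0.05 (limma, adjusted p = 0.9999 for each), where 0.0167% of all 17920 tested probes did. At an unadjusted p under 0.05 there was 1 of 16, Cdkn1c, against 3.03% of all probes (1.26% with KO higher and 1.77% with KO lower). The WT and KO arrays did not overlap at 1 of 16, again Cdkn1c, against 8.14% of all probes (2.84% with KO higher and 5.3% with KO lower). With the pair letter as a term in the fit, 0 of 16 passed against 0.0223% of all probes, and Cdkn1c was again the 1 at an unadjusted p under 0.05, against 8.08%. A probe entered the test when detected on at least 3 of the 6 arrays, which the other 5 probes of these genes were not. All 9 genes kept at least 1 tested probe, 4 of them more than 1. The arrays measure RNA of a whole culture, in which fewer cells of a type and less RNA per cell cannot be told apart. Nothing in the labels ties each culture to an animal of its own, so p-values here reflect only how far these samples spread, and that spread may be technical. The number of arrays limits the precision.

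Cdkn1c (p57, on chromosome 7), an imprinted inhibitor that restrains growth in development, had the widest gap between genotypes among the 9 genes. Its only probe read 8.69, 8.86 and 9.15 in WT A, B and C, and 9.71, 9.25 and 9.97 in KO A, B and C, all as log2 intensity. Each KO array stood above its paired WT array and above all 3 WT arrays, with KO B closest to them. The WT mean was 8.90 ± 0.23 and the KO mean 9.64 ± 0.36 (SD, n = 3 each). The difference was 0.74 (SE 0.24, 95% interval 0.18 to 1.30), a 1.67-fold higher level in KO, which did not pass over all probes (limma, unadjusted p = 0.0165, adjusted p = 0.9999). By pair, the gap was 1.02 (A), 0.39 (B) and 0.82 (C). Without WT A, WT B or KO C the unadjusted p was no longer under 0.05, and over the omission of each array the difference ranged from 0.58 to 0.94.

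The gap in pair B depended on how the arrays were put on a common scale. Raw intensity was 548 in WT A and 1018 in KO A, 635 in WT C and 1077 in KO C, but 555 in WT B and 535 in KO B. Before any scaling the KO B level was thus not above that of WT B, with a log2 difference of -0.05. With each array scaled to its median the pair B difference was 0.0013, and in the authors' value table it was 0.33. Pairs A and C kept differences of 0.73 or more on the log2 scale under every scaling tried. The 3 genes whose levels followed Cdkn1c most closely over the 6 arrays, out of 6396 genes of comparable spread, were Fbln2 (root mean square distance 0.08), P3h1 (0.10) and Col5a1 (0.11). Fbln2 encodes an extracellular matrix glycoprotein, P3h1 a collagen prolyl hydroxylase and Col5a1 a fibrillar collagen chain. Their KO minus WT log2 differences were 0.73, 0.56 and 0.84. Being chosen for closeness to Cdkn1c over the same arrays largely sets these values, so they are no separate result.

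By their medians, fibroblast markers were higher in KO in pairs A and C, as Cdkn1c was. All 10 tested markers of 11 had a higher mean in KO, with a median log2 difference of 0.62 (0.83 in A, -0.06 in B, 1.21 in C), against -0.02 over all tested probes. None passed the threshold, 5 had an unadjusted p under 0.05 (3.03% of all probes), and 4 had no overlap (8.14% of all probes). These 4 were the collagen chain genes Col6a2, with a difference of 1.25 (SE 0.31), and Col1a1 (0.91, SE 0.30), the surface marker Thy1 (1.08, SE 0.33) and the growth factor receptor Pdgfrb (0.53, SE 0.16). Summed normalised intensity was 6930, 7570 and 6690 in WT A, B and C, and 9540, 7140 and 11900 in KO A, B and C. The sum was higher in KO in pairs A and C but lower in pair B. On the same normalised scale Cdkn1c was higher in KO in pair B, by a log2 difference of 0.39. Periostin (Postn) was detected on no array. The part of fibroblast content in the Cdkn1c difference was not tested.

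**Figure D1:**
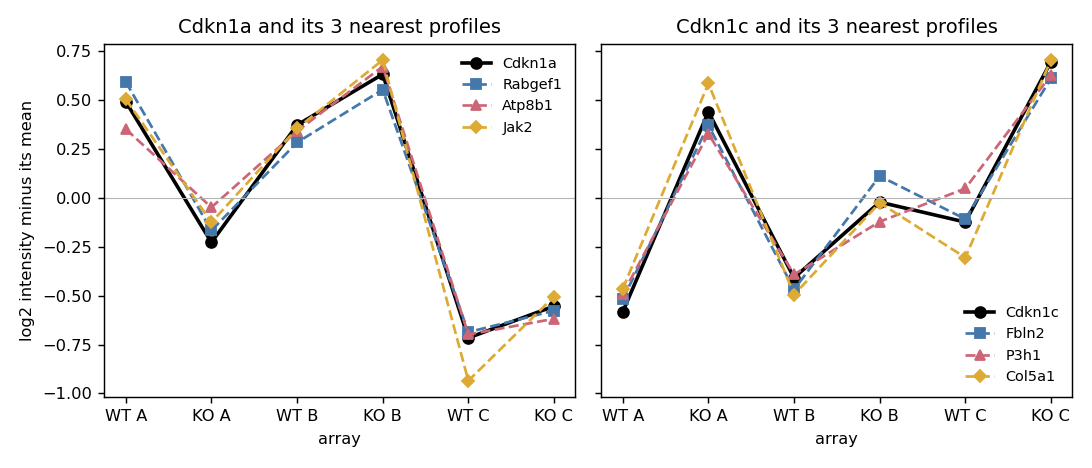
Log2 intensity minus its mean over the 6 arrays (vertical axis) on each array (horizontal axis), for Cdkn1a (left) and Cdkn1c (right) in black and the 3 genes nearest to each in colour. Cdkn1a is lowest on both pair C arrays, whereas Cdkn1c is higher on the KO than on the WT array of each pair.

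Cdkn1a (p21, on chromosome 17), the main p53 target that halts the cycle, differed between cultures more than between genotypes. Its brightest probe read 10.90, 10.78 and 9.69 in WT A, B and C, and 10.18, 11.04 and 9.85 in KO A, B and C. The groups overlapped, both pair C arrays were lowest, and KO was lower than WT in pair A and higher in pairs B and C. Raw intensity in pair B was 1829 in WT and 1711 in KO, so the order of that pair depended on the scaling. The WT mean was 10.46 ± 0.66 and the KO mean 10.36 ± 0.61 (SD, n = 3 each), a difference of -0.10 (SE 0.42, 95% interval -1.085 to 0.88; limma adjusted p = 0.9999). The other Cdkn1a probes gave -0.14 (SE 0.45) and 0.0047 (SE 0.54), with KO lower in pair A by all 3 probes. With the pair letter as a term, the interval of the brightest probe was -0.63 to 0.43.

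At the brightest Cdkn1a probe, pair C minus the mean of pairs A and B was -1.15 in WT and -0.75 in KO on the log2 scale. The other probes gave -1.15 and -1.38 in WT and -1.05 and -1.23 in KO. Of all tested probes, 25.4% were lowest in pair C in both genotypes, so this is a common pattern on these arrays. The nearest profiles to Cdkn1a among 5280 genes of comparable spread were Rabgef1 (root mean square distance 0.07), Atp8b1 (0.10) and Jak2 (0.10). Rabgef1 encodes an exchange factor of endosomal Rab5, Atp8b1 a phospholipid flippase and Jak2 a cytokine receptor kinase.

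Cdkn1b (p27, on chromosome 6), which holds resting cells out of the cycle, was dim, with a narrow range over the arrays. Its tested probe read 5.27, 5.05 and 5.32 in WT A, B and C, and 5.33, 5.23 and 5.24 in KO A, B and C. The groups overlapped and the difference was 0.05 (SE 0.16, 95% interval -0.33 to 0.43; limma adjusted p = 0.9999). Pair B was 114 in WT and 108 in KO as raw intensity, so its order depended on the scaling. Of its other probes, 1 was detected on 1 KO array, with KO above WT by 0.18 and no overlap near background, and 1 on none.

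**Figure D2:**
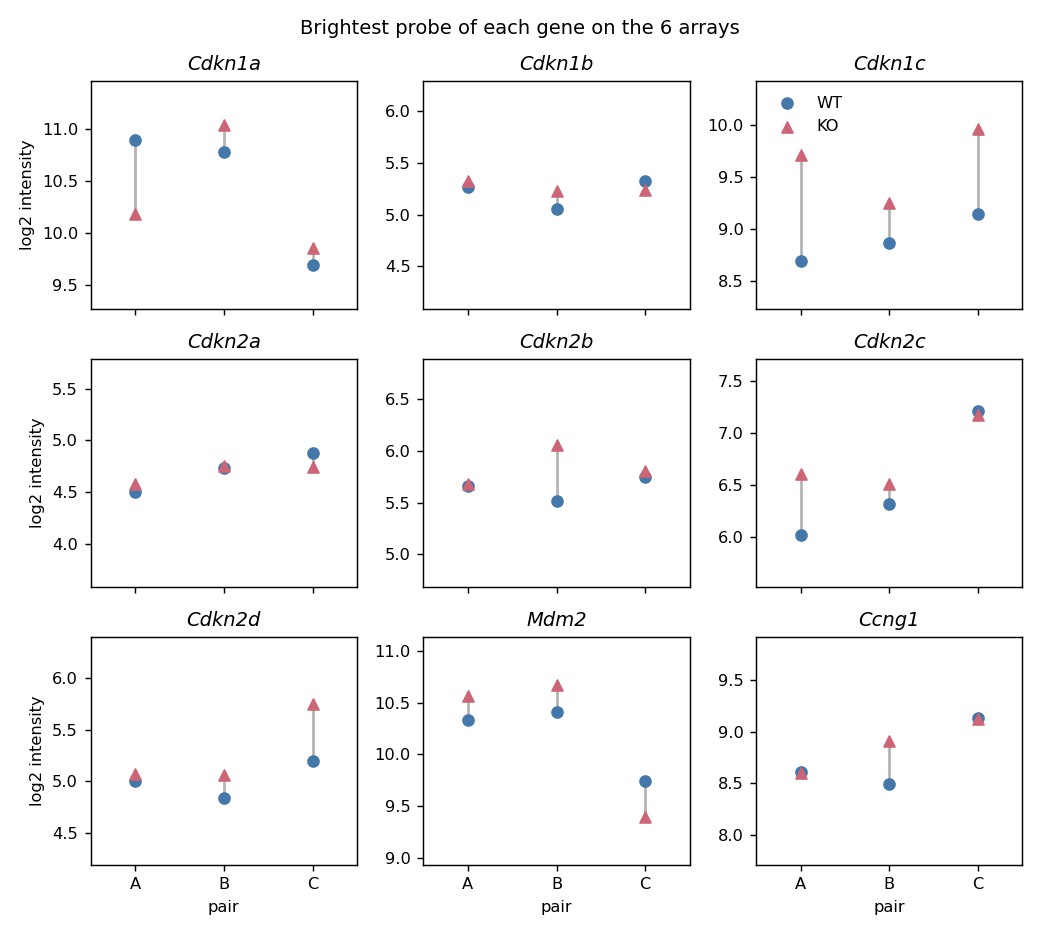
Log2 intensity (vertical axes, each spanning the same range) of the brightest probe of each of the 9 genes in pairs A, B and C (horizontal axes), with WT as circles, KO as triangles and a line joining each pair. Cdkn1c has KO above WT in all 3 pairs without overlap, and Cdkn1a and Mdm2 are lowest in pair C.

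At all 4 INK4 genes the WT and KO arrays overlapped. The 1 tested probe of Cdkn2a (chromosome 4) is annotated to the ARF transcript. This probe read 4.50, 4.73 and 4.87 in WT A, B and C, and 4.58, 4.75 and 4.74 in KO A, B and C. It was close to background, detected on 2 WT and 3 KO arrays, and differed by -0.01 (SE 0.17, 95% interval -0.42 to 0.40). A second probe annotated to ARF was detected on 1 array, and the probe annotated to INK4a (p16) on none. The sources used here do not show whether a probe reads 1 transcript or both. No INK4a level was thus measured on its own in either genotype. A low INK4a level below the detection limit of the arrays is not shown to be absent.

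Cdkn2b (p15, chromosome 4), which TGF-beta induces, read 5.66, 5.52 and 5.75 in WT A, B and C, and 5.68, 6.06 and 5.81 in KO A, B and C. KO was above WT in every pair, mostly in pair B, but KO A lay within the WT range. Raw intensity in WT and KO was 133.5 and 135.3 in pair A, 125.9 and 128.2 in pair B, and 136.1 and 138.8 in pair C. The larger gap of pair B thus depended on the scaling. The means were 5.64 ± 0.12 and 5.85 ± 0.19 (SD, n = 3 each), a difference of 0.21 (SE 0.18, 95% interval -0.21 to 0.63; limma adjusted p = 0.9999). It was 0.10 without KO B and 0.077 in the authors' value table.

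Cdkn2c (p18, chromosome 4) read 6.01, 6.32 and 7.22 in WT A, B and C, and 6.60, 6.51 and 7.17 in KO A, B and C at its brightest probe. Both pair C arrays were highest and the groups overlapped. The order of pair B depended on the scaling, with a raw intensity of 159.9 in WT and 145.3 in KO. The difference was 0.25 (SE 0.35, 95% interval -0.57 to 1.06), and the other probes gave -0.21 (SE 0.33) and 0.22 (SE 0.28). Those other probes lay close to background, each detected on 3 of the 6 arrays, so their signs carry little weight. The brightest probe was highest in pair C in both genotypes, by 1.05 in WT and 0.62 in KO against the mean of pairs A and B. Of all tested probes, 25.6% were highest there. The dimmer probes were also highest there, but both pair C arrays were among the 3 that detected each of them. They thus met the detection rule through pair C and add no support of their own.

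Cdkn2d (p19-INK4d, chromosome 9) read 5.00, 4.84 and 5.20 in WT A, B and C, and 5.07, 5.06 and 5.75 in KO A, B and C. KO was above WT in every pair, with the largest gap of 0.55 in pair C, and the groups overlapped. Raw intensity in pair B was 109.5 in WT and 105.5 in KO, so the order of that pair depended on the scaling. The difference was 0.28 (SE 0.24, 95% interval -0.28 to 0.84; limma adjusted p = 0.9999), 0.052 without KO C and 0.084 in the authors' value table.

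Mdm2 (chromosome 10), the ligase that p53 induces and that destroys p53, read 10.33, 10.41 and 9.74 in WT A, B and C, and 10.56, 10.67 and 9.40 in KO A, B and C at its brightest probe. KO was higher in pairs A and B and lower in pair C, and both pair C arrays were lowest, as for Cdkn1a. Raw intensity in pair B was 1443 in WT and 1322 in KO, so the order of that pair depended on the scaling. The WT mean was 10.16 ± 0.36 and the KO mean 10.21 ± 0.70 (SD, n = 3 each). The difference was 0.05 (SE 0.37, 95% interval -0.83 to 0.93), and the second tested probe gave -0.10 (SE 0.28). Pair C minus the mean of pairs A and B was -0.62 in WT and -1.22 in KO.

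Ccng1 (chromosome 11), a cyclin that p53 induces and that recruits a phosphatase to Mdm2, read 8.61, 8.49 and 9.14 in WT A, B and C, and 8.60, 8.91 and 9.12 in KO A, B and C at its brightest probe. Pair C was highest in both genotypes, opposite to Cdkn1a and Mdm2. Before scaling, pair B read 443.5 in WT and 439.7 in KO, so the order of that pair depended on the scaling. The difference was 0.13 (SE 0.24, 95% interval -0.43 to 0.69), and from 0.0033 (without WT B) to 0.33 (without WT C) when 1 array was left out. The other probes gave 0.23 (SE 0.26) and 0.27 (SE 0.20). The p53 targets among the 9 genes thus did not share a profile over the arrays: all 5 tested probes of Cdkn1a and Mdm2 were lowest in pair C in both genotypes, and 2 of the 3 Ccng1 probes highest.

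**Figure D3:**
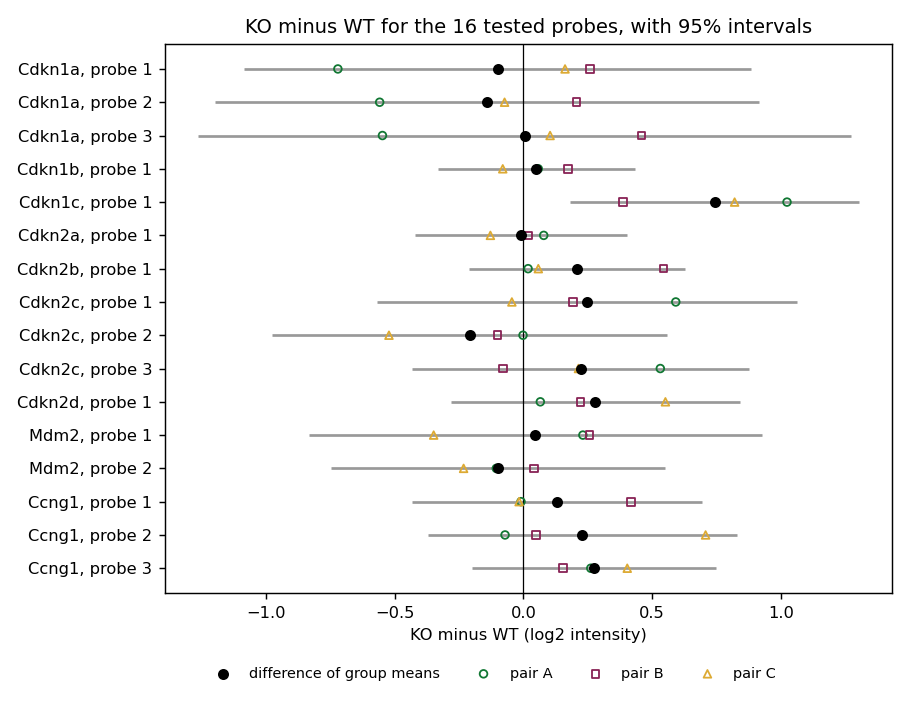
KO minus WT log2 intensity (horizontal axis) of the 16 tested probes (vertical axis), with filled points for the difference of group means, bars for its 95% interval and open symbols for each pair. The Cdkn1c interval, 0.18 to 1.30, is the 1 that lies off 0.

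Over the 16 tested probes, 11 were positive and 5 negative, with a median log2 difference of 0.09, against 46.0% positive and a median of -0.02 over all tested probes. When each array was scaled to its median, 8 were positive and 8 negative, and the median of all probes was then -0.10. The median size of the difference was 0.17, and 0.15 over all probes. KO was above WT in all 3 pairs at 4 of 16 probes (Cdkn1c, Cdkn2b, Cdkn2d and 1 Ccng1 probe), against 12% of all probes. In raw intensity KO was below WT in pair B at Cdkn1c, Cdkn2d and that Ccng1 probe (126.4 in WT, 117.5 in KO), but not at Cdkn2b. KO was below WT in all pairs at 1, a Cdkn2c probe close to background, against 19.3% of all probes. The 95% interval lay within a 2-fold change either way for 11 of the 16. The other 5 were the 3 Cdkn1a probes, Cdkn1c and 1 Cdkn2c probe. With the pair letter as a term it lay within that range for 15 of the 16, all but Cdkn1c (0.32 to 1.17). At dim probes, such as those of Cdkn2a and Cdkn2d, these intervals bound normalised intensity and not the change in RNA level. The Cdkn2d difference went from 0.28 to 0.093 without background correction.

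Further p53 targets of arrest, repair and metabolism mostly had lower means in KO, with none past the threshold. Of 17 listed genes, 14 were tested, 12 of them with a lower and 2 with a higher mean in KO, and their median was -0.18 (pair A -0.34, pair B -0.09, pair C 0.02). Of all tested probes, 46.0% were positive, with a median of -0.02. Polk, a translesion polymerase, had no overlap, with KO lower by a log2 difference of -0.33 (SE 0.18). Xpc, a sensor of damaged DNA, differed by -0.39 (SE 0.22), and the stress kinase Plk3 by -0.50 (SE 0.42). Phlda3, an inhibitor of Akt that p53 induces, had no overlap with KO higher by 0.38 (SE 0.22), and its second probe gave 0.13. Of all tested probes, 5.3% had no overlap with KO lower and 2.84% with KO higher. Phlda3 and Btg2 lie within 5 Mb of Kdm5b on chromosome 1 of GRCm38.p6, where none of the 9 genes lies, and DNA linked to the targeted allele and the loss of Kdm5b cannot be told apart there. Btg2 was detected on 1 array and was not tested.

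Death genes of p53 had a median of 0.03, with 7 of the 10 tested of 12 positive and none past the threshold. Bbc3 (PUMA), which disarms survival proteins at mitochondria, differed by -0.43 (SE 0.26) and Aen, an apoptosis nuclease, by -0.37 (SE 0.39). Siva1 differed by 0.42 (SE 0.40) and Apaf1, the core of the apoptosome, by 0.25 (SE 0.19). These signs did not run one way.

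Among regulators of p53, 12 of 16 were tested, 8 lower and 4 higher in mean, with a median of -0.10 and none past the threshold. Trp53bp1, which gathers at DNA breaks, was lower in all 3 pairs, with a difference of -0.38 (SE 0.21). The kinase Hipk2 differed by -0.33 (SE 0.24) and the p53 ligase Cop1 by -0.30 (SE 0.29). Ppm1d, a phosphatase that turns p53 off, differed by -0.23 (SE 0.25). Mdm4, a partner of Mdm2, also lies within 5 Mb of Kdm5b, and none of its 5 probes met the detection rule.

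**Figure D4:**
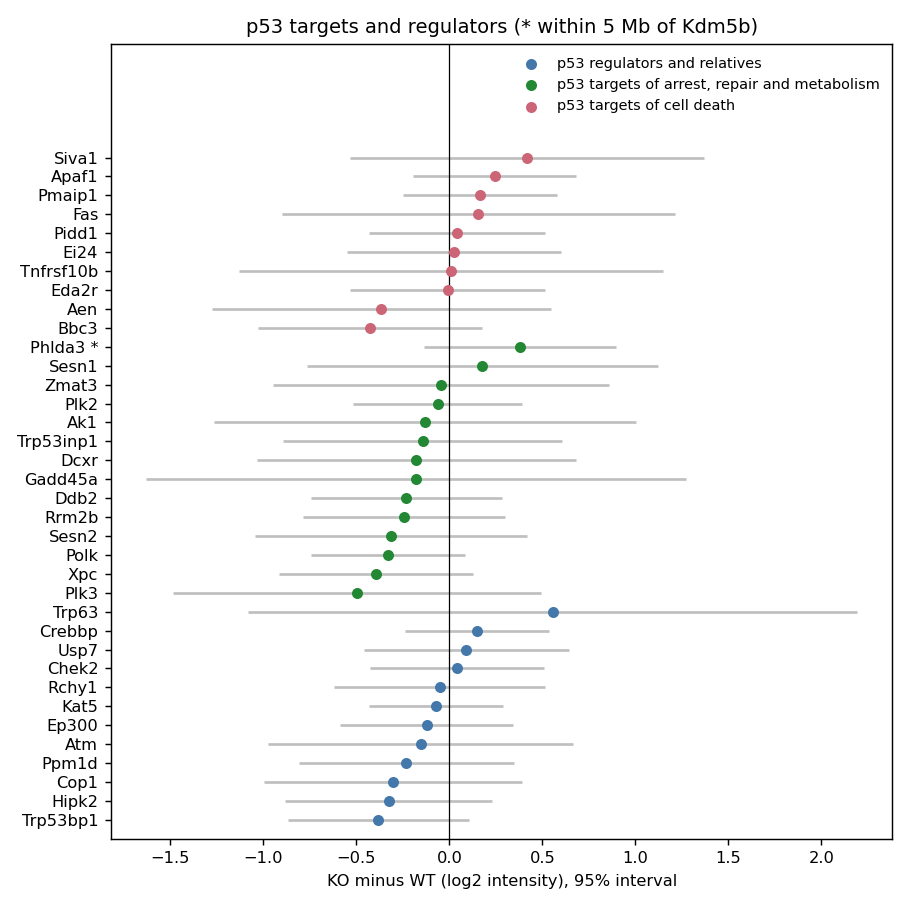
KO minus WT log2 intensity with 95% intervals (horizontal axis) of tested p53 targets and regulators (vertical axis), coloured by list, with an asterisk within 5 Mb of Kdm5b. All intervals, from the fit without a pair term, cross 0, and 12 of the 14 arrest, repair and metabolism genes lie below it.

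Genes that set the level of CDK inhibitors had a median of -0.20, with 11 of the 17 tested of 21 negative and none past the threshold. Cbx7, a Polycomb protein that keeps the Cdkn2a locus silent, read lower on every KO than on every WT array, with a difference of -0.59 (SE 0.20; limma, unadjusted p = 0.0200, adjusted p = 0.9999). Tbx3, a repressor of Cdkn2a, differed by -0.50 (SE 0.33), and Skp1, a subunit of the ligase that degrades Cdkn1b, by -0.33 (SE 0.19). Ddb1, a ligase adaptor, had no overlap with KO higher by 0.23 (SE 0.16). Of all tested probes, 5.3% had no overlap with KO lower, as Cbx7 did, and 2.84% with KO higher. The Cdkn2a locus itself stayed close to background in both genotypes, as given above.

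The cyclins, kinases, RB and E2F proteins that the inhibitors act on mostly had higher means in KO. Of 18 listed, 13 were tested, 11 positive and 2 negative, with a median of 0.29 (pair A 0.71, pair B 0.10, pair C 0.15) and none past the threshold. At an unadjusted p under 0.05 there were 3 (Ccnd2, E2f1 and E2f2), against 3.03% of all probes. Ccnd2, a D cyclin, had no overlap, as 2.84% of all probes with KO higher, and differed by 0.62 (SE 0.20; limma, unadjusted p = 0.0169, adjusted p = 0.9999). E2f1 differed by 1.045 (SE 0.42) and E2f2 by 0.97 (SE 0.36), each higher in KO in all 3 pairs, and the D cyclin Ccnd3 by 0.32 (SE 0.18). E2f2 was detected on 1 WT and 3 KO arrays, so it met the detection rule only through KO and its WT level was mostly not above background. Ccne1, whose value of 0.29 is the list median, and Pcna (0.05) were each detected on 1 WT and 2 KO arrays. Rbl1 (0.44) was detected on 2 WT and 2 KO arrays. The signs of these dim genes carry little weight. Keeping only probes well above background on every array (detection p below 0.01) gave a list median of 0.25.

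Proliferation genes had a higher mean in KO at all 17 tested of 20, with a median of 0.80, and none passed the threshold. By pair, the medians were 2.09 (A), -0.33 (B) and 0.64 (C), so the pairs did not share a sign. Mcm3, of the replicative helicase, differed by 0.79 (SE 0.31), Rrm1, a subunit of ribonucleotide reductase, by 1.03 (SE 0.45), Tyms, which makes thymidylate, by 0.99 (SE 0.54), and Mcm2, of the same helicase, by 1.01 (SE 0.57). Mcm6, within 20 Mb of Kdm5b, differed by 0.84 (SE 0.72). Summed normalised intensity was 1810, 2230 and 4550 in WT A, B and C, and 6910, 2010 and 6950 in KO A, B and C. The KO sum was above WT in pairs A and C and below it in pair B. Over the same pairs A, B and C, normalised Cdkn1a differed by -0.72, 0.26 and 0.16, and Cdkn1c by 1.02, 0.39 and 0.82. In raw intensity both genes were lower in KO than in WT in pair B.

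Senescence-linked genes had a median of 0.10, with 6 of the 10 tested of 13 positive and none past the threshold. Vegfa differed by -0.45 (SE 0.37), the protease inhibitor Timp1 by 0.76 (SE 0.72), and the growth factor binding proteins Igfbp3 and Igfbp5 by -0.31 (SE 0.41) and -0.20 (SE 0.31). The median turned sign in 5 of 18 alternatives, and was -0.44 without WT C, -0.28 with array weights, -0.045 without KO A and 0.24 without KO C.

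Cell type markers differed between the same arrays. Luminal markers had a lower mean in KO at all 6 tested of 8, with a median of -0.39 (pair A -0.89, pair B -0.20, pair C -0.29), and none passed the threshold. The junction protein Cldn4 differed by -0.62, keratins Krt18 and Krt19 by -0.46 and -0.31, and the factor Elf3, within 5 Mb of Kdm5b, by -0.93. Hormone-sensing luminal markers were lower in mean at all 4 tested of 5, with a median of -0.60 (Spdef -0.67, Foxa1 -0.91, Pgr -0.53 and Esr1 -0.27). That median was -0.24 without background correction and -0.22 in the authors' value table. Basal markers had a median of -0.10, with 4 negative (Krt17 -0.36, Krt14 -0.32, Mylk -0.13, Myh11 -0.06) and 2 positive (Krt5 0.068 and Acta2 0.011). That median was 0.24 without WT C, 0.022 without pair C and 0.075 with array weights, so its sign was not settled. Endothelial markers had a median of 0.46 with a pair B median of 1.0 (Cldn5 differed by 0.62, Tek by 0.47, Pecam1 by 0.46 and Emcn by 0.36). Their summed normalised intensity on KO B was 5270 and 2320 to 3100 on the other arrays. Macrophage and lymphoid lists had 3 tested of 7 each, with medians of 0.07 (Lyz2 0.85, Tyrobp 0.07, Adgre1 0.02) and 0.74 (Cd3e 0.98, Cd3d 0.74, Cd3g 0.60). The lymphoid value came from KO C, with pair medians of -0.55 (A), -0.78 (B) and 3.35 (C), and it was -1.099 without KO C. The adipocyte list had 2 tested of 5, Lep at -0.35 and Adipoq at 0.13, and the leukocyte gene Ptprc, within 5 Mb of Kdm5b, was detected on no array. The part of these cell type differences in the values of the 9 genes was not tested.

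**Figure D5:**
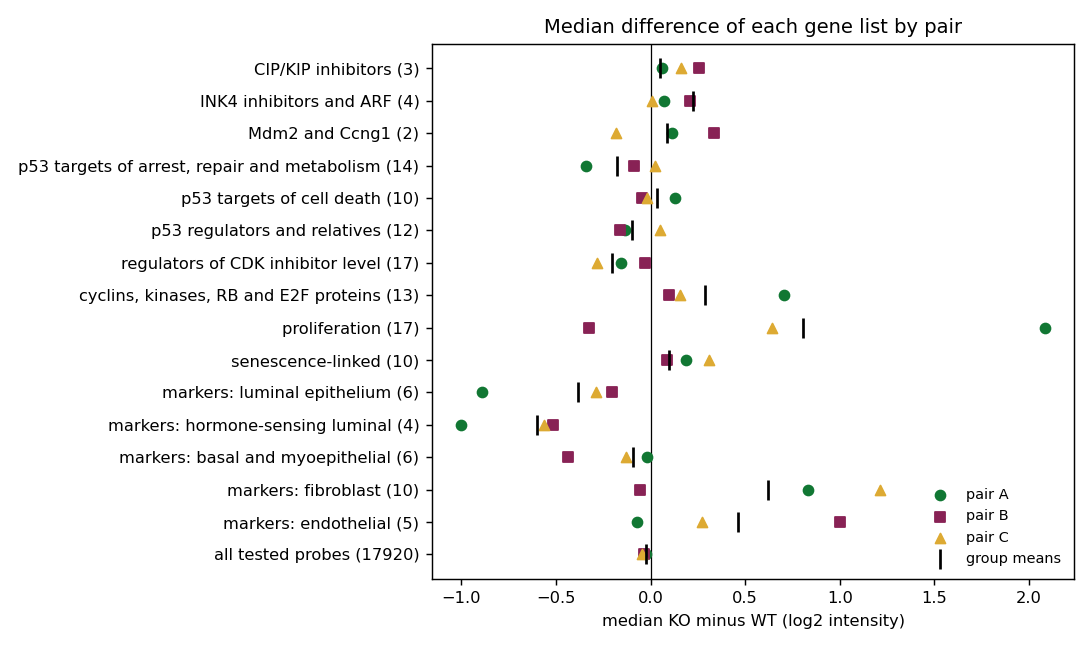
Median KO minus WT log2 intensity (horizontal axis) of each gene list (vertical axis, number of tested genes in brackets), for pairs A, B and C and, as a bar, the difference of group means. The lists of the 9 genes have medians of 0.05 to 0.23, proliferation ranges from -0.33 in pair B to 2.09 in pair A, and fibroblast markers are at -0.06 in pair B and 1.21 in pair C.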

How the data were processed

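Total RNA of 6 mammary epithelial cell cultures, 3 WT and 3 KO, was turned into biotinylated cRNA and read on Illumina mouse bead arrays (labels' protocols). The deposited intensity values are raw probe brightness and the deposited detection p-value compares each probe with negative control beads, per the file headers. The authors' value table holds quantile-normalised log2 values, as its columns share 1 distribution. Its direction follows the raw intensities, and the sources used here do not give its background step. The submitters' processing notes name GenomeStudio and lumi, without role or version in the sources used here.

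Intensities were normalised with neqc of limma 3.58.1 in R 4.3.3 (background from detection p, offset of 16, quantiles, log2). Probes detected (p under 0.05) on at least 3 arrays were tested, 17920 in all, each probe on its own. KO minus WT was tested by limma's lmFit and eBayes, two-sided, without a pair term, and adjusted over all tested probes by Benjamini-Hochberg at a threshold of 0.05. Probes were named by the platform annotation and a GRCm38.p6 gene table. Of 45281 probes, 34885 had 1 symbol, 18 several and 10378 are unnamed here. A gene on a list was its brightest tested probe. Summed intensities added normalised values off the log2 scale, each with the offset of 16. They took the brightest probe of every listed gene on the array, tested or not. All columns belong to a sample (0 do not). The fit was tested on simulated data.

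The wording at least N-fold sets the WT mean against the mean, over KO arrays, of the higher of the lowest detected signal and the probe's own. All probes of the 9 genes are accounted for, and Kdm5b, up to 4 genes of each other list by smallest unadjusted p, and listed genes within 20 Mb of Kdm5b are named. Genes nearest in profile were those with the smallest root mean square log2 distance of centred values, among genes with at least 0.5 of the member's SD. Members and lists were chosen with earlier results of these data known.

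Sample titles carry the pair letters, and pairs are also mentioned in the labels. Deviations from the group mean correlated at 0.352 within pair A, 0.490 within B and 0.720 within C, and at 0.423 between WT A and KO B. Alternatives were the replicate block, other background, offset, scaling, value table, filter, gene summary, eBayes and weight settings, other thresholds, pairs A and B only, and omission of each array.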

Additional observations from a re-analysis of the deposited data

How the results depend on the processing

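No alternative brought a probe of the 9 genes past an adjusted p under 0.05 in limma, and at an unadjusted p under 0.05 there was 1 of 16. That 1, Cdkn1c, was lost with median scaling and without WT A, WT B or KO C, and its difference stayed between 0.58 (without KO C) and 0.94 (without KO B), with adjusted p from 0.371 to 1.0. Over all probes, 3 passed. The count was 1 without background correction, with an offset of 50, in the authors' value table and without a detection filter, 0 with detection p under 0.01 on all 6 arrays, 5 with array weights, 1 to 2 when 1 array was left out, and 543 at an unadjusted p under 0.05. In the fit with pairs as replicate block, 4 probes passed over all and 0 of the 9 genes, and 1448 probes had an unadjusted p under 0.05 in place of 543. The block changed no call of the gene lists at an adjusted p under 0.05. At an unadjusted p under 0.05 several lists rose, such as proliferation from 1 to 4 and luminal markers from 0 to 2, while fibroblast markers stayed at 5. With the block the intervals of Xpc (-0.75 to -0.03) and Trp53bp1 (-0.73 to -0.03) lay off 0. The block brought the intervals within a 2-fold change from 11 to 15 of the 16 probes. Cdkn1c then had an unadjusted p = 0.0045 (limma, adjusted p = 0.453). The median over the 16 probes was 0.09, and 0.20 with array weights. Differences near 0 turned sign. Cdkn1b was -0.00038 and Mdm2 -0.062 with median scaling, Mdm2 was -0.026 as the mean of its probes and -0.076 with array weights, and Cdkn2a was 0.044 with pairs A and B only. With 1 array left out, the range was -0.48 to 0.15 for Cdkn1a, -0.030 to 0.10 for Cdkn1b, -0.11 to 0.074 for Cdkn2a, -0.0059 to 0.60 for Cdkn2c and -0.18 to 0.45 for Mdm2. The cause was not tested. Signal over background limits the Cdkn2a value, whose probe was detected on 5 of the 6 arrays, and the dimmer Cdkn2c probes, each detected on 3.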
